A study of Arabidopsis thaliana with 24 samples.

Results

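A set of 7 regulators of phyllotaxis, the regular placement of leaves and flowers around the shoot tip, were followed through 24 mRNA sequencing libraries of Arabidopsis thaliana seedlings. They were PLT3 (AT5G10510), PLT5 (AT5G57390), PLT7 (AT5G65510), ANT (AT4G37750), AHP6 (AT1G80100), ARF5 (AT1G19850) and DRNL (AT1G24590), taken by locus from the 27782 genes of the deposited table. All 7 were listed. Whole seedlings of 14 days in the Col-0 accession were sampled as biological triplicates in 8 groups of 3 libraries. In 2018, batches 1 to 3 held wild type (WT), the insertion mutant dne1, and the lines OE1 and OE2, each carrying a GFP fusion of DNE1 under the 35S promoter, which drives expression in most plant cells. In 2019, batches 4 to 6 held WT and libraries labelled vcs-6, and batches 7 to 9 held WT and a line with a GFP fusion of DNE1 carrying the D153N substitution, also under 35S. The D153N overexpressor was represented by 1 line, and the labels do not say that its endogenous DNE1 was removed. DNE1 is an endoribonuclease associated with mRNA decapping, and VARICOSE (VCS) is a scaffold of the mRNA decapping complex.

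New organs start at the flank of the shoot meristem where auxin accumulates, and ARF5 (also called MONOPTEROS) is the auxin response factor that turns on genes of organ founder cells there. ANT promotes growth of the young organ, DRNL is an AP2-type factor made in founder cells, and AHP6 is an inhibitor of cytokinin signalling that moves into neighbouring cells and steadies the timing of organ initiation. PLT3, PLT5 and PLT7 are PLETHORA factors of the same AP2 class as ANT that act redundantly on organ positioning and on auxin transport.

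The PLT3 and PLT7 genes shared a stretch of sequence just before their annotated starts. Each line gives the 250 bases before the gene start from the RefSeq assembly TAIR10.1, 5′ to 3′ on the gene's strand, with the shared block of 43 bases in capitals.
PLT3, TAIR10.1 chr5:3315151-3315400, plus strand: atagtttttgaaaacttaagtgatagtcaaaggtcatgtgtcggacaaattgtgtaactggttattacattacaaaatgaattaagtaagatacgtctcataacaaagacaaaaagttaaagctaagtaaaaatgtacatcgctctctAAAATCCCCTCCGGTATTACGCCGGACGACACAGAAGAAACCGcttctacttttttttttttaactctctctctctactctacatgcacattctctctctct
PLT7, TAIR10.1 chr5:26185343-26185592, plus strand: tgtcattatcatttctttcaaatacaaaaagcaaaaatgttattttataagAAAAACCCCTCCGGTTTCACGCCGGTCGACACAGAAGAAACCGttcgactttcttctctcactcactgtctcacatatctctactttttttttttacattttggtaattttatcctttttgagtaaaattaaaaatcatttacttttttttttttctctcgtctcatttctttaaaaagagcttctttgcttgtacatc
In the block, 39 of the 43 bases were identical, and it lay 102 to 60 bases before the PLT3 start and 199 to 157 bases before the PLT7 start. Its longest identical run, cgacacagaagaaaccg, had 17 bases and was found, on either strand, in 2 of 27443 windows of the same kind (250 bases before to 50 after a gene start, 0.00729%), which are those of these genes. The next longest run among the 21 pairs of the 7 windows was 12 bases. PLT3, PLT5, PLT7 and ARF5 all rose in the libraries labelled vcs-6 below, and PLT5 and ARF5 shared at most 11 identical bases in a row with PLT3 or PLT7. Any link between the block and the counts was not tested. The auxin response element core TGTCTC, on either strand, was in the window of 1 regulator, PLT7, and in 14.2% of all windows. The higher-affinity form TGTCGG was in the windows of PLT3 and PLT5 and in 5.1% of all windows. These are matches of letters only, and no binding was measured here.

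The libraries held 36714564 to 70561391 recovered reads in 2018 and 22611653 to 53908600 in 2019, and the authors set size factors separately for each year. DNE1 averaged 1462 ± 145.7 normalized read counts in WT of batches 1 to 3 (here and below mean ± SD, n = 3 libraries), 309.2 ± 50.1 in dne1, 21230 ± 2138 in OE1 and 19980 ± 2005 in OE2. It averaged 819.7 ± 29.6 in WT of batches 7 to 9 and 15780 ± 3211 in D153N. In the libraries labelled vcs-6 VCS was higher than in their WT, at 8115 ± 632.3 against 5282 ± 599.8, so its count does not check that label.

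In wild-type seedlings, ANT and ARF5 were the most abundant of the regulators and DRNL the least. Per kilobase of transcript, WT of batches 7 to 9 gave normalized counts of 290.9 ± 31.3 for ANT, 252.5 ± 30.4 for ARF5, 138.3 ± 13.5 for PLT5, 78.6 ± 7.53 for PLT3, 17.2 ± 2.80 for PLT7, 12.9 ± 2.84 for AHP6 and 3.21 ± 3.33 for DRNL. ANT and ARF5 differed by less than their summed SD in this order, as did PLT7 and AHP6, while PLT5 and PLT3 were separated. WT of batches 1 to 3 gave the same order per kilobase, with ANT at 650.2 ± 170.4. So did WT of batches 4 to 6, with ANT at 398.5 ± 68.1, except that AHP6 (21.6 ± 15.9) stood above PLT7 (17.1 ± 1.77) there, within its spread. In the libraries labelled vcs-6 the order was different: ARF5 stood first at 546.6 ± 142.5, ANT (219.7 ± 51.0) came down to the level of PLT3 (220.7 ± 48.1), and AHP6 (3.37 ± 3.24) was last. DRNL rested on few reads, with 16, 4 and 10 reads summed over the 3 WT libraries of batches 1 to 3, 4 to 6 and 7 to 9.

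**Figure D1:**
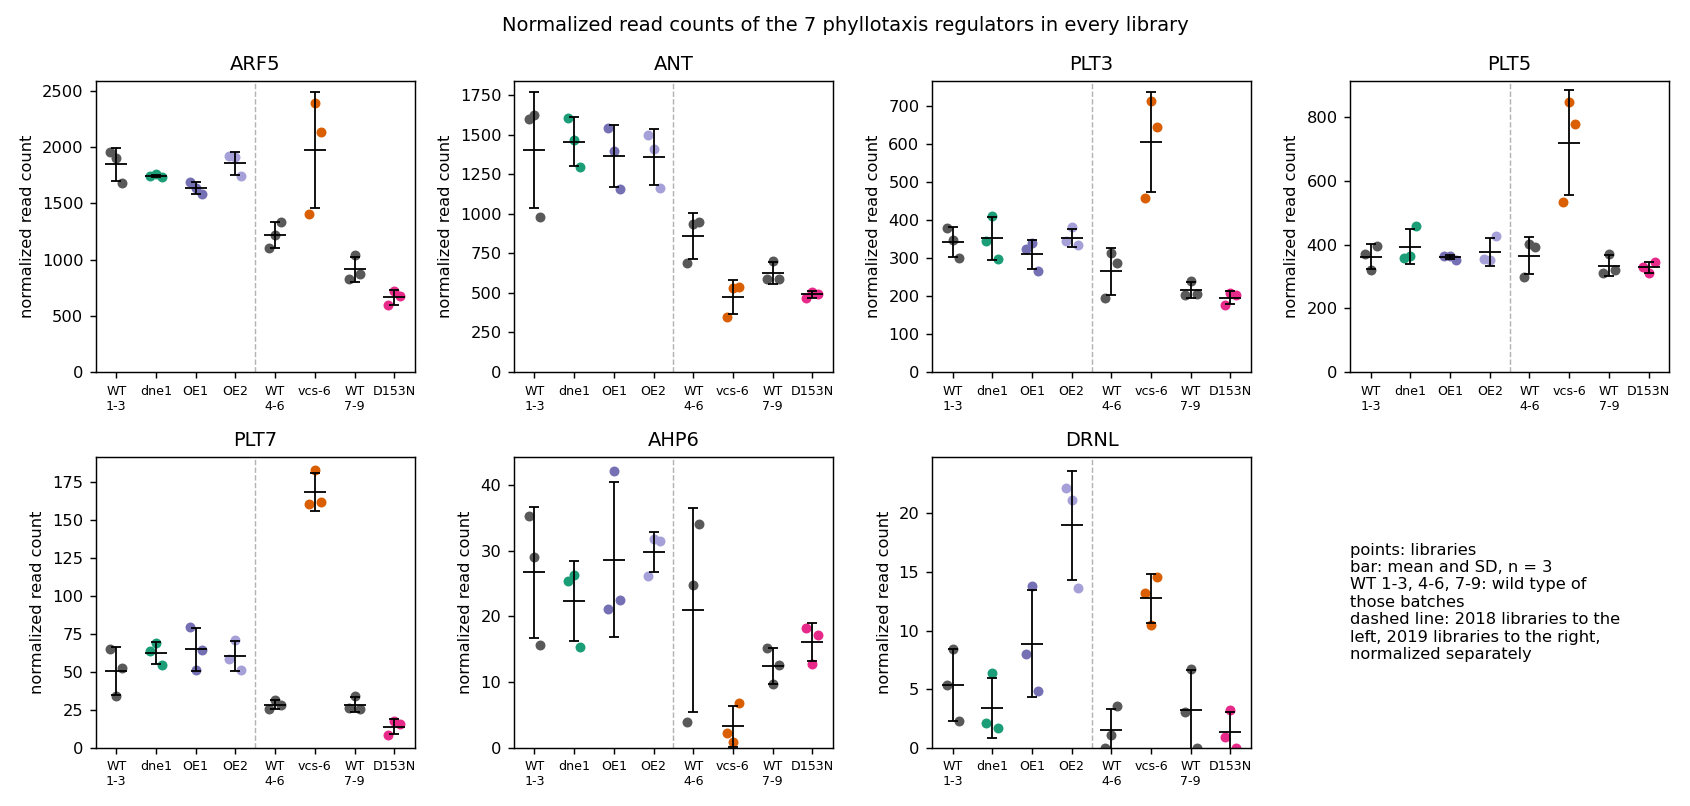
Normalized read counts (y axes, linear from 0) of each regulator in all 24 libraries by group (x axes), where points are libraries and bars are means with SD, n = 3. PLT3, PLT5 and PLT7 stand highest in the libraries labelled vcs-6 and ANT is lowest there beside D153N, while dne1, OE1 and OE2 overlap their WT for every gene except DRNL in OE2.

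Most changes of the regulators were in the libraries labelled vcs-6. Their 3 PLETHORA transcripts and ARF5 were higher than in WT of the same batches, and ANT was lower. Of these, PLT7 rose most, to 168.2 ± 12.6 normalized counts from 28.3 ± 2.94 in WT, 5.94 times the WT mean. The share of all 21351 tested genes called changed in this comparison was 51.5% (26.7% higher and 24.8% lower), so a call by itself was common. Since the libraries are of whole seedlings, a larger share of cells making a transcript and more transcript per cell cannot be told apart, here and in every comparison below.

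Among the PLETHORA factors, PLT7 counted 25.4, 31.3 and 28.2 in the WT libraries and 160.6, 182.7 and 161.4 in those labelled vcs-6. Every vcs-6 value lay far above every WT value, and the log2 change was 2.53 ± 0.19 (SE; adjusted p = 5.7e-05, limma, adjusted by Benjamini-Hochberg across the whole table, as for every adjusted p below). PLT3 counted 195.5, 312.9 and 288.0 in WT and 458.7, 714.0 and 646.7 in the libraries labelled vcs-6. The groups did not overlap, and PLT3 rose by 1.19 ± 0.23 (adjusted p = 0.0038). PLT5 counted 298.1, 403.5 and 393.8 in WT and 535.7, 847.6 and 779.9 in those labelled vcs-6. It too was higher in 3 of 3 libraries, by 0.97 ± 0.21 (adjusted p = 0.0058). The share of tested genes whose groups did not overlap was 61.9%. PLT3 overlaps AT5G10520 on the opposite strand, and 16.5% of its 31-base words occur in other transcripts; since the strand setting of the counting is not given, its reads and those of AT5G10520 may be mixed. AT5G10520 itself averaged 234.0 ± 29.9 in WT and 240.8 ± 33.3 in the libraries labelled vcs-6.

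ARF5, the activator of the auxin branch, counted 1101, 1221 and 1334 in WT and 1400, 2393 and 2134 in the libraries labelled vcs-6. The lowest of these 3 was only just above the highest WT library, and the change of 0.66 ± 0.20 (adjusted p = 0.025) was the smallest of the called ones. The call was lost when WT 4 (0.59, adjusted p = 0.083), the second vcs-6 column (0.51, adjusted p = 0.086) or the third (0.59, adjusted p = 0.080) was left out. ARF5 overlaps AT1G19860 on the opposite strand, which averaged 823.4 ± 31.8 in WT and 666.6 ± 73.5 in the libraries labelled vcs-6.

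The 3 genes that act downstream of auxin in organ founders did not move in a common direction. ANT counted 689.1, 937.5 and 948.5 in WT and 346.5, 533.7 and 539.7 in the libraries labelled vcs-6. All 3 lay below every WT library, and ANT fell by 0.87 ± 0.21 on the log2 scale (adjusted p = 0.01). AHP6 counted 3.91, 24.8 and 34.1 in WT and 2.20, 0.805 and 6.81 in the libraries labelled vcs-6. The groups overlapped through WT 4, which was the lowest of its 3 WT libraries for all 7 regulators. AHP6 did not pass the filter of 10 normalized counts in 3 libraries, and without the filter its difference was -2.21 (adjusted p = 0.06). It rested on 10 reads in the 3 libraries labelled vcs-6 and 56 in WT, a ratio of 0.157 with a counting interval of 0.0715 to 0.311 (exact binomial, 95%, counting error only). The authors' deposited values, from DESeq2, give AHP6 a log2 fold change of -1.80 here with an adjusted p of 0.0027.

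DRNL counted 0, 1.08 and 3.53 in WT and 13.2, 10.5 and 14.6 in the libraries labelled vcs-6. The groups did not overlap, but DRNL entered the test only through its vcs-6 values. It held 40 reads in the libraries labelled vcs-6 and 4 in WT, a ratio of 8.81 with a counting interval of 3.18 to 33.9 (exact binomial, 95%), and a fitted change of 2.69 ± 0.63 (adjusted p = 0.0085).

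Because these changes had opposite signs, ratios of the regulators within a library separated the groups further, and they do not depend on how libraries were scaled. The ratio of PLT3 to ANT read counts was 0.284 to 0.334 in the WT libraries of batches 4 to 6 and 1.20 to 1.34 in those labelled vcs-6. For PLT5 to ANT the ranges were 0.415 to 0.433 and 1.45 to 1.59. For PLT7 to ANT they were 0.0297 to 0.0369 and 0.299 to 0.463. ARF5 to ANT went from 1.30 to 1.60 in WT to 3.95 to 4.48. WT 4 and the first vcs-6 column, each low in several regulators, lay on the side of their own group in all 4 ratios. This had to follow, since each numerator and ANT had groups without overlap that moved in opposite directions, so it supports nothing further. PLT5 to PLT3 moved little, from 1.29 to 1.52 in WT to 1.17 to 1.21.

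**Figure D2:**
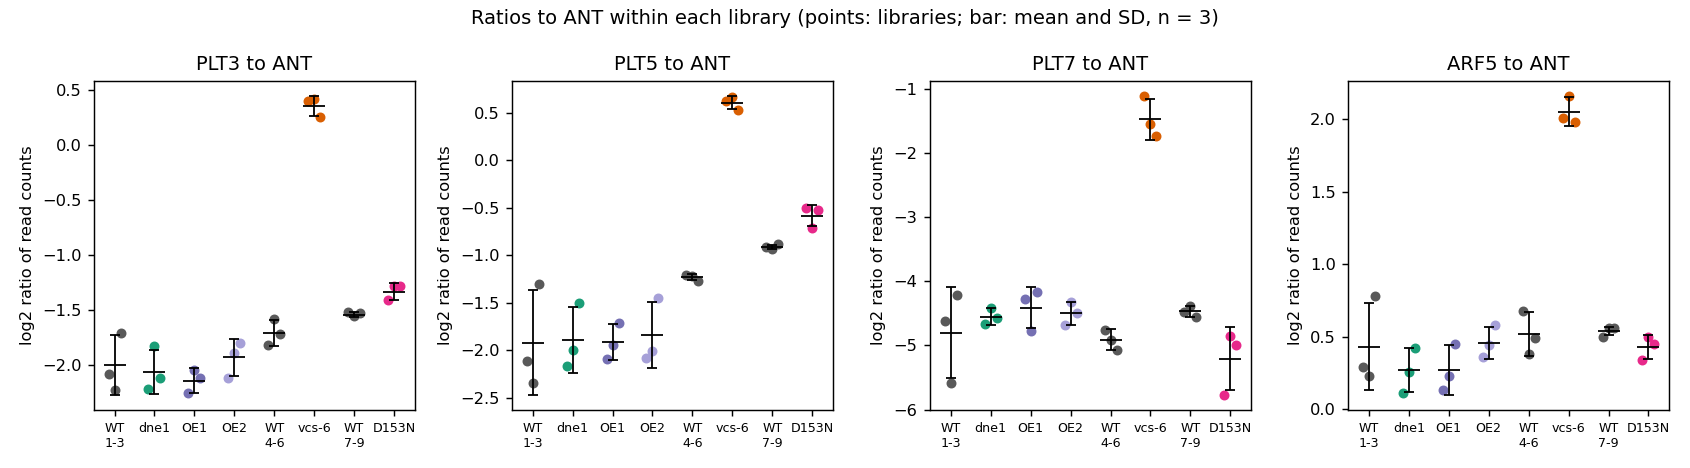
Ratios of the read counts of PLT3, PLT5, PLT7 and ARF5 to that of ANT within each library (y axes, log2) by group (x axes), where points are libraries and bars are means with SD, n = 3. The libraries labelled vcs-6 stand above all others in the 4 panels, with PLT3 to ANT at 1.20 to 1.34 on the linear scale against 0.284 to 0.334 in their WT.

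In the D153N overexpressor ARF5 fell and no regulator rose past the threshold. ARF5 was the only regulator of the 6 tested that passed the threshold, beside a share of 15.9% of all tested genes called (6.84% lower). ARF5 counted 828.7, 1037 and 872.4 in WT of batches 7 to 9 and 593.8, 718.0 and 675.3 in D153N. The groups did not overlap, and ARF5 fell by 0.46 ± 0.12 on the log2 scale (adjusted p = 0.047). The call was at the threshold: it was lost in each of the 6 fits that left out 1 library (adjusted p from 0.066 to 0.13) and without the filter on low values (adjusted p = 0.052). The authors' deposited table gives ARF5 a log2 fold change of -0.451 with an adjusted p of 0.0758. AT1G19860, its neighbour on the opposite strand, averaged 691.0 ± 66.7 in WT and 699.1 ± 34.0 in D153N.

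PLT7 counted 26.2, 33.7 and 25.3 in WT and 8.61, 17.6 and 15.5 in D153N. Every D153N library lay below every WT library, with a ratio of means of 0.489, beside a share of 39.6% of tested genes whose groups did not overlap (19.5% with the line lower). The difference of -1.03 ± 0.33 did not pass (adjusted p = 0.079). The authors' deposited table gives PLT7 a log2 fold change of -0.953 with an adjusted p of 0.0133. ANT counted 585.4, 704.4 and 590.0 in WT and 468.5, 507.4 and 494.8 in D153N. These groups did not overlap either, and the difference of -0.35 ± 0.11 had an adjusted p of 0.069, or 0.049 with DESeq2.

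The other PLETHORA genes stayed within the WT range or near it. PLT3 counted 203.9, 240.0 and 204.4 in WT and 175.9, 209.0 and 203.3 in D153N, a difference of -0.14 with a 95% interval of -0.45 to 0.17. PLT5 counted 310.9, 371.0 and 319.5 in WT and 330.8, 311.1 and 344.6 in D153N, a difference of -0.02 with an interval of -0.29 to 0.25. Both pairs of groups overlapped. AHP6 counted 15.1, 9.64 and 12.6 in WT and 18.2, 12.8 and 17.1 in D153N. The groups overlapped and the difference was 0.34 (interval -0.39 to 1.08, adjusted p = 0.48). DRNL was not tested here, with 3 reads in D153N and 10 in WT, a ratio of 0.349 with a counting interval of 0.0618 to 1.36. Within libraries, the PLT7 to PLT3 ratio was 0.124 to 0.141 in WT and 0.0489 to 0.084 in D153N, and the PLT3 to ARF5 ratio was 0.231 to 0.246 in WT and 0.291 to 0.301 in D153N.

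**Figure D3:**
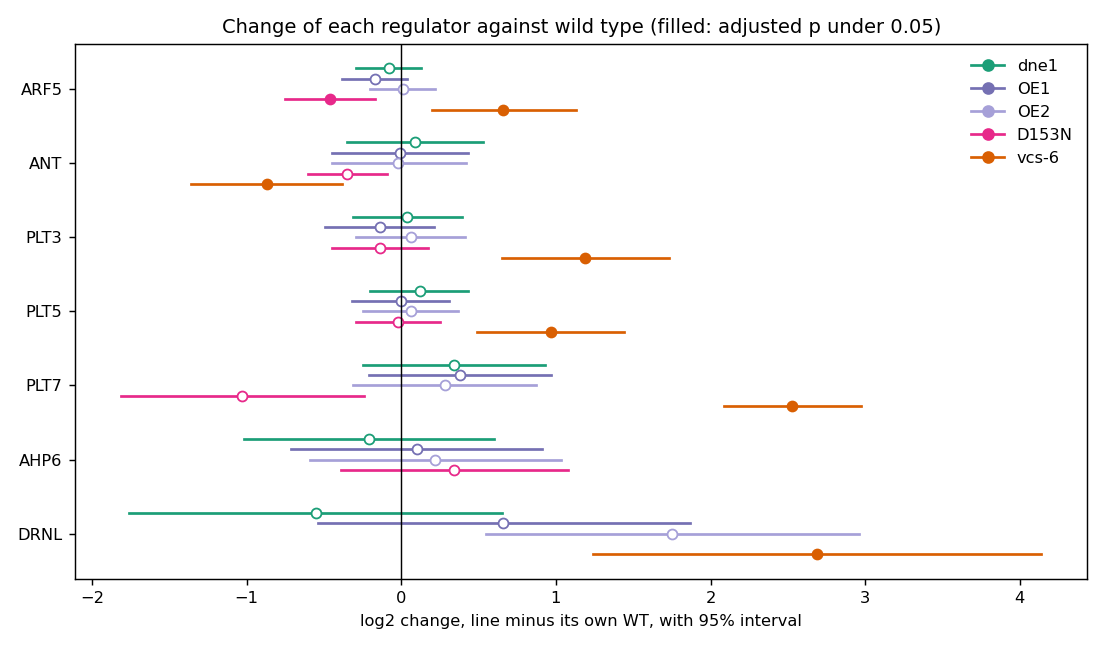
Log2 change of each regulator (y axis) against its own WT (x axis) in the 5 lines, with 95% intervals from limma; filled points have an adjusted p under 0.05. PLT7 lies at 2.53 in the libraries labelled vcs-6 and at -1.03 in D153N, while the points of dne1, OE1 and OE2 are all open.

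The dne1 mutant and the lines overexpressing unaltered DNE1 had no regulator past the threshold. The share of the 21631 tested genes called was 0.0185% in dne1, 0.139% in OE1 and 0.171% in OE2, so few genes of any kind were called in this fit, which left out the batch. With the batch as a block, 4 genes were called in dne1, 268 in OE1 and 253 in OE2, and again no regulator. The intervals below are from the fit without the block. For ARF5 the difference was -0.08 in dne1 (95% interval -0.29 to 0.13), -0.17 in OE1 (-0.38 to 0.04) and 0.01 in OE2 (-0.20 to 0.22). For PLT3 it was 0.04 in dne1 (-0.31 to 0.39), -0.14 in OE1 (-0.49 to 0.21) and 0.06 in OE2 (-0.29 to 0.41). The PLT3 intervals leave room for moderate changes in either direction. Those of ARF5 are narrower, and in OE1 the ARF5 interval reaches only 0.04 on the higher side.

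PLT5 differed from WT by 0.12 in dne1 (-0.20 to 0.43), 0.00 in OE1 (-0.32 to 0.31) and 0.06 in OE2 (-0.25 to 0.37). ANT differed by 0.09 (-0.35 to 0.53), -0.01 (-0.45 to 0.43) and -0.02 (-0.45 to 0.42). PLT7, with fewer reads, had wider intervals: 0.34 in dne1 (-0.25 to 0.93), 0.38 in OE1 (-0.21 to 0.97) and 0.28 in OE2 (-0.31 to 0.87). Its 3 values share the WT library of batch 2. Within batch 2 the PLT7 differences were 1.00, 0.58 and 1.04, while in batches 1 and 3 they ran from -0.16 to 0.28. AHP6 differed by -0.21 in dne1 (-1.02 to 0.60), 0.10 in OE1 (-0.71 to 0.91) and 0.22 in OE2 (-0.59 to 1.03). Its 3 lines each overlapped WT.

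DRNL, the founder-cell factor, was the one regulator of these lines with an unadjusted p under 0.05, and in OE2. It counted 5.37, 8.46 and 2.24 in WT, 2.12, 6.34 and 1.70 in dne1, 8.04, 13.8 and 4.81 in OE1, and 22.2, 21.1 and 13.6 in OE2. All 3 OE2 libraries lay above every WT library, which 6.13% of tested genes did in OE2, while OE1 and dne1 overlapped WT. DRNL passed the filter of 10 normalized counts through 3 OE2 libraries and 1 OE1 library only, so its place among the tested genes supports nothing. The difference in OE2 was 1.75 ± 0.55 (unadjusted p = 0.0082, adjusted p = 0.49), from 61 reads in OE2 and 16 in WT, and it was -0.55 ± 0.55 in dne1 and 0.66 ± 0.55 in OE1. Taking OE1 and OE2 together, where 0.365% of tested genes were called, DRNL differed by 1.21 ± 0.47 (adjusted p = 0.48).

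The lines were also set against each other by the difference of their effects, each measured against its own WT, in a fit of all 24 libraries. PLT7 was lower in D153N than the mean effect of OE1 and OE2 would place it, by -1.36 ± 0.34 (adjusted p = 0.043), beside a share of 2.15% of genes called (478 genes, and 202 to 868 with 1 library left out). That call was lost in 16 of 24 fits that left out 1 library (adjusted p from 0.030 to 0.14 over the 24), without the filter (0.054) and with edgeR (0.051). The highest adjusted p of the 24 came without the WT library of batch 2 (-1.10, adjusted p = 0.135, limma). ARF5 (-0.38 ± 0.19) and ANT (-0.34 ± 0.26) did not pass, with adjusted p of 0.36 and 0.59.

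Between the vcs-6 effect and the D153N effect, where 26.3% of genes were called, PLT7 differed by 3.56 ± 0.36 (adjusted p = 1.1e-06). PLT3 differed by 1.33 ± 0.26 (adjusted p = 0.00078), ARF5 by 1.12 ± 0.20 (adjusted p = 0.00043) and PLT5 by 0.98 ± 0.23 (adjusted p = 0.0031). By their counts given above, ARF5 and PLT7 lay above WT in the libraries labelled vcs-6 and below WT in D153N. The difference of effects does not test the D153N side alone, where PLT7 did not pass and the call of ARF5 was at the threshold. ANT lay below WT in both, and its effects did not differ past the threshold (-0.52 ± 0.28, interval -1.10 to 0.06, adjusted p = 0.18).

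Spread between libraries of a group followed the batch for several regulators. Of the 3 libraries in each of the 4 groups of 2018, that of batch 3 was the lowest in all 4 groups for ARF5, ANT, PLT3 and DRNL, which 13.5% of genes were. In WT, ANT counted 1600 and 1624 in batches 1 and 2 and 977.0 in batch 3. In dne1, OE1 and OE2 the batch 3 value of ANT was 1295, 1158 and 1164. PLT5 went the other way in 3 of 4 groups, with 396.0 in WT, 458.4 in dne1 and 427.3 in OE2 as the highest of each group. With the batch as a block, no regulator was called in dne1, OE1 or OE2, and the adjusted p of DRNL in OE2 was 0.064.

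The WT groups of 2019, which the labels separate by batch alone, were compared for the same genes. Between WT of batches 4 to 6 and of batches 7 to 9, 1 of 20955 genes was called (0.00477%) and none of the 6 regulators tested. ANT was higher in batches 4 to 6 by 0.44 ± 0.15 (unadjusted p = 0.022, adjusted p = 0.3) and ARF5 by 0.42 ± 0.12 (unadjusted p = 0.0094, adjusted p = 0.26). These differences are close in size to the D153N difference of ARF5, which was measured within batches 7 to 9. PLT7 was level between them, at 28.3 ± 2.94 and 28.4 ± 4.63.

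Related genes were counted in the same way, and each count below stands beside the 51.5% of all tested genes called in the libraries labelled vcs-6 (26.7% higher, 24.8% lower) and the 15.9% called in D153N. In the libraries labelled vcs-6 none of the 4 tested members of the AP2 relatives was called: PLT1 (-0.69 ± 0.52) and PLT2 (-0.34 ± 0.58), PLETHORA genes best known from the root tip, PUCHI (-0.60 ± 0.39), a lateral organ factor, and BBM (0.24 ± 0.28), an embryo and root factor, all had intervals that include 0. DRN, the nearest relative of DRNL, was below the filter, at 8.06 ± 1.46 normalized counts in the libraries labelled vcs-6 and 3.56 ± 2.15 in WT. In D153N none of the 4 was called either. The ARF family of 8 other auxin response factors had 2 genes higher and 5 lower in vcs-6, 7 of 8 called beside 51.5% of all genes, with a median of -0.49 beside 0 for all genes tested. ARF4 (0.94 ± 0.15) and ARF3 (0.89 ± 0.15), factors of leaf polarity, rose as ARF5 did, while ARF2 (-1.07 ± 0.10) and ARF1 (-0.97 ± 0.12), repressor-type factors, and ARF6 (-0.89 ± 0.16) fell. In D153N 3 of the 8 fell, ARF1 (-0.72 ± 0.09), ARF19 (-0.58 ± 0.16) and ARF2 (-0.44 ± 0.11), and none rose, beside 6.84% of all tested genes lower. Both ARF1, with an antisense neighbour, and ARF19, with a neighbour on its own strand, overlap other genes.

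Among 9 tested partners and targets of ARF5, 1 was higher and 3 lower in the libraries labelled vcs-6, a share near the 51.5% of all genes. TMO6 rose (1.13 ± 0.16), and DOF5.8 (-2.27 ± 0.28), CRF2 (-1.87 ± 0.22) and YAB1 (-1.06 ± 0.21) fell. LFY, a floral regulator that ARF5 activates, held 20 reads in WT and 0 in the 3 libraries labelled vcs-6. In D153N 2 of 9 were higher and none lower: IAA12 (0.66 ± 0.13), the Aux/IAA repressor known as BODENLOS that binds ARF5, and TMO5 (0.46 ± 0.11), a vascular factor that ARF5 activates. DOF5.8, not called here, averaged 21.7 in D153N and 42.3 in WT, with no overlap. For D153N the authors' deposited values, from DESeq2, give IAA12 0.64 (adjusted p = 0.0022) and TMO5 0.44 (adjusted p = 0.22). They give DOF5.8 -0.88 (adjusted p = 0.027). ARF5 itself was lower in that line, as given above.

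For auxin supply and transport, 1 of 7 tested genes was higher in the libraries labelled vcs-6, the auxin synthesis gene YUC4 (1.80 ± 0.20), and 2 were lower, the influx carriers LAX1 (-0.70 ± 0.20) and AUX1 (-0.51 ± 0.14); this share too is near the 51.5% of all genes. None of the 7 was called in D153N. YUC1 was below the filter there, at 1.12 normalized counts against 6.64 in WT. The authors' deposited values, from DESeq2, give it -1.53 (adjusted p = 0.0396). Of 3 growth genes, ARGOS, ARL and the cyclin gene CYCD3;1, 2 were higher in the libraries labelled vcs-6. They were ARL (1.37 ± 0.34) and CYCD3;1 (1.03 ± 0.20). The list was named for genes downstream of ANT, but the order of these 3 genes relative to ANT was not tested. Their changes are therefore not read as an output of ANT. CYCD3;1 overlaps a gene on its own strand. None of the 3 was called in D153N.

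The cytokinin phosphorelay, which AHP6 inhibits, had 2 of 12 genes higher and 3 lower in the libraries labelled vcs-6, a share near the 51.5% of all genes. The largest on each side were AHP2 (0.66 ± 0.14), a phosphotransfer protein, and AHK2 (-0.82 ± 0.17), a receptor. In D153N, where 15.9% of all genes were called, 1 of 12 was higher, again AHP2 (0.70 ± 0.10), and 2 were lower, ARR1 (-0.63 ± 0.16) and ARR2 (-0.46 ± 0.11), both response activators; ARR1 overlaps a gene on the opposite strand. Of 9 type-A response regulators, which cytokinin induces, none was higher and 2 were lower in the libraries labelled vcs-6, with ARR15 at -1.14 ± 0.32. In D153N 2 of 9 were higher and none lower, with ARR16 at 1.26 ± 0.33. The other called gene in D153N was ARR8 (0.86 ± 0.15), of whose 31-base words 20.6% occur in other transcripts.

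Markers of the shoot meristem, flower and root were also counted. Of 10 tested shoot meristem and boundary markers, 7 were higher and 1 lower in the libraries labelled vcs-6, beside 26.7% and 24.8% of all genes, with a median of 0.68. CUC1 (3.29 ± 0.25) and CUC2 (1.85 ± 0.34), which mark organ boundaries, and WUS (4.04 ± 0.56, 106 reads against 4), the stem cell organiser, had the largest fitted values; WUS, like DRNL, passed the filter only through its vcs-6 libraries. CLV1 (-1.51 ± 0.12), a receptor that restricts the meristem, fell. The summed level of the 11 genes ran from 4010 to 5037 normalized counts there and from 4511 to 5102 in WT. CLV1, the most abundant of the 11 in WT, averaged 2097 in WT and 734.7 in the libraries labelled vcs-6. Its fall offsets the genes that rose in this sum. The summed level of 12 root markers ran from 5070 to 7739 against 4149 to 5838, with 3 higher and 2 lower. PRP3 alone averaged 3095 in the libraries labelled vcs-6 and 1468 in WT, a large part of this sum. PLT1 and PLT2 stand in this list too, as LFY does among the floral markers. Of 4 floral markers tested, 2 were higher, PI (1.43 ± 0.38) and SEP3 (1.34 ± 0.19), and 2 lower, FUL (-2.93 ± 0.39) and SOC1 (-1.02 ± 0.19). PI averaged 8.33 normalized counts in WT and 22.9 in the libraries labelled vcs-6. Without those libraries it would not have passed the filter, so its call supports nothing. The root count is near the 51.5% of all genes called. The part of tissue makeup in the changes of the regulators was not tested. In D153N, CLV1 (-0.62 ± 0.09) was the 1 called of 9 shoot markers, and WUS held 0 reads against 7 in WT. STM was not called, with overlapping groups and a ratio of means of 0.555. The authors' deposited values, from DESeq2, give STM -0.79 in D153N (adjusted p = 0.029). The summed shoot level was 3298 to 3376 against 4105 to 4804, with CLV1 averaging 1266 against 1950. None of 12 root and 9 floral markers was called, though the floral median was 0.42 beside 0 for all genes. The authors' deposited values, from DESeq2, give FUL 0.85 (adjusted p = 0.016) and AG 1.44 (adjusted p = 0.025), and no other floral marker an adjusted p under 0.05.

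**Figure D4:**
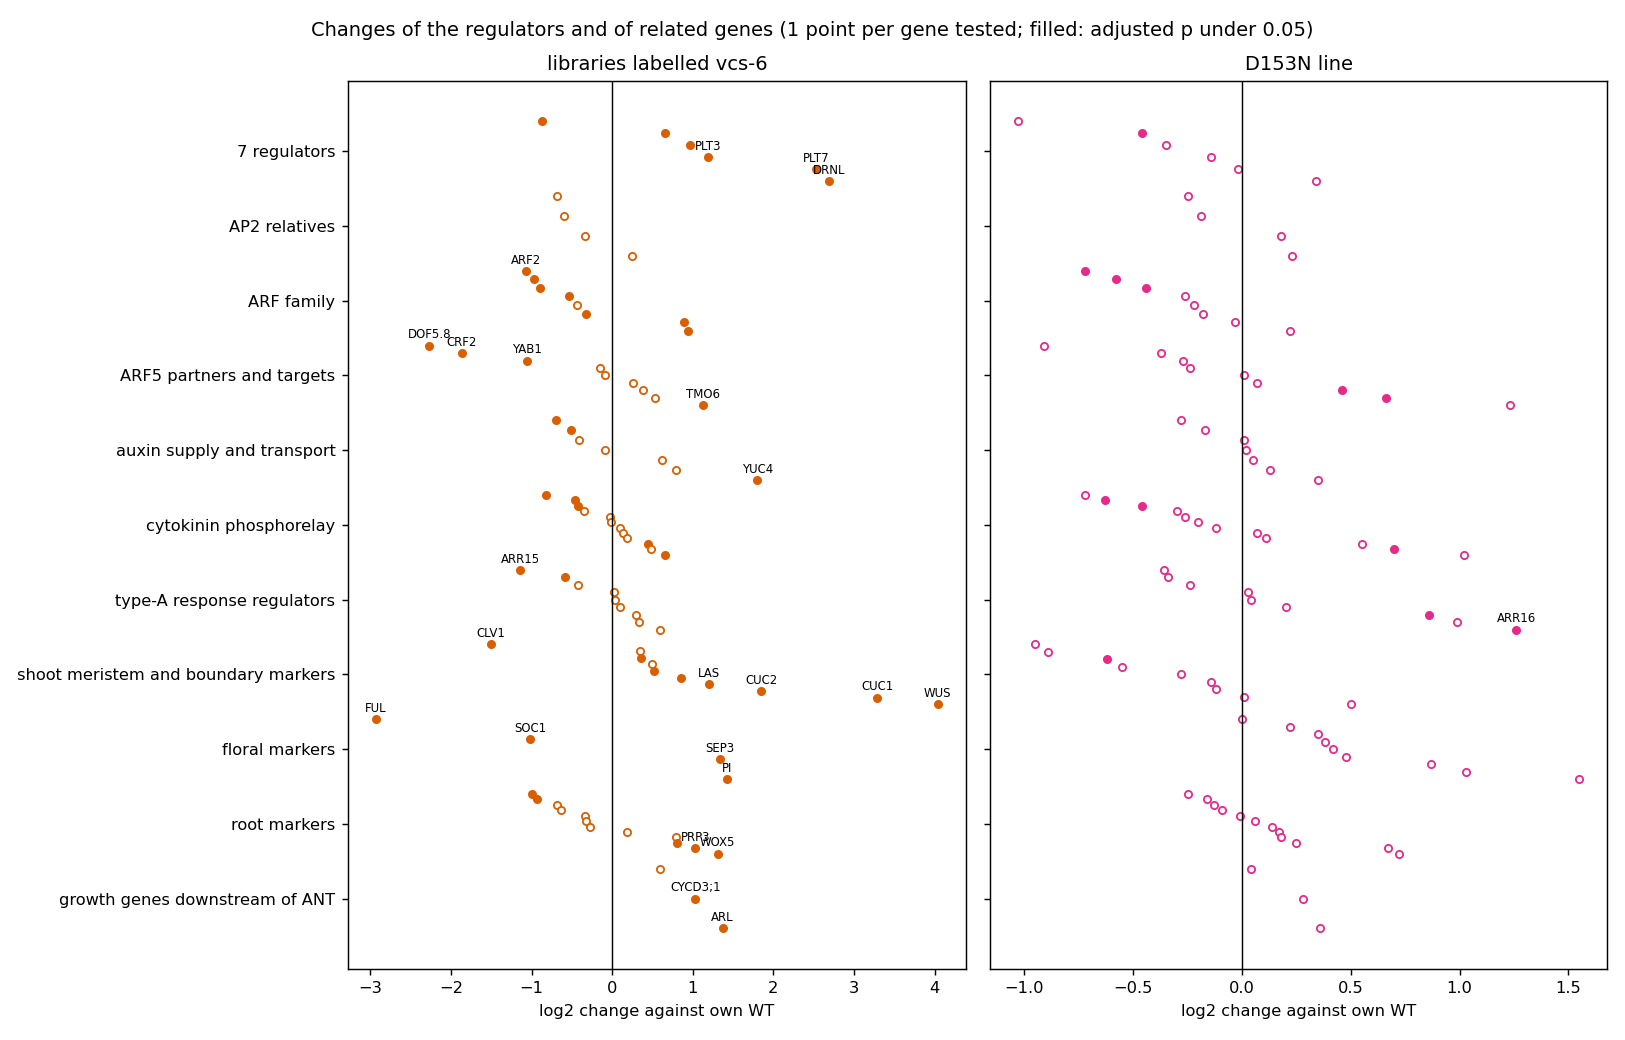
Log2 change against own WT (x axes) of every tested gene of the 7 regulators and of each related list (y axis), in the libraries labelled vcs-6 (left) and in D153N (right, on its own scale); each point is a gene, filled where the adjusted p is under 0.05, and called genes that changed by over 1 are named. In the left panel the shoot meristem and boundary markers lie mostly to the right, with CUC1 at 3.29 and WUS at 4.04.

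Over the 24 libraries, with each gene centred on its own WT group and on a log2 scale, PLT3 varied with PLT5 (Pearson r = 0.90), ARF5 (0.89) and PLT7 (0.86), and ANT varied with AHP6 (0.70). PLT7 and AHP6 varied in opposite directions (-0.72). These values describe the same 24 libraries, share their scaling and rest largely on the 3 libraries labelled vcs-6. Among 20305 genes, those most like PLT3 were GLN1.3, SCPL45 and BRXL4, each at 0.94, and BRXL4 was also among the 3 nearest to ARF5 (0.89), after BRL3 (0.92) and VIP3 (0.90). Nearest to PLT7 were AT4G17830 (0.95), ALDH10A9 and CXE17 (both 0.94), and nearest to PLT5 were AT1G50570, AT5G50090 (both 0.94) and AT5G66440 (0.93). Nearest to ANT were NIMIN1 (0.94), EMB2729 and AT3G22235 (both 0.93). AHP6 was nearest to FRU, AT4G30650 and BLT at 0.86, and DRNL to EP3 (0.89), LSH6 (0.88) and AT4G16260 (0.85). CXE17 averaged 468 normalized counts in the libraries labelled vcs-6, 34.9 in their WT, 23.3 in D153N and 54.7 in the WT of D153N, and NIMIN1 averaged 2.48 in the libraries labelled vcs-6 and 33.2 in their WT.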

How the data were processed

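Per the labels' protocols, TRIZOL was used for RNA extraction and a Lexogen SENSE kit for mRNA libraries. Tools named in the submitters' processing notes are bcl2fastq 2.17.1.14, HISAT2 2.1.0, HTSeq and DESeq2, with the build TAIR10. Which annotation release and strand setting were used is not given in the sources used here. Each value the authors deposited for a gene in a library is a signal, the read count divided by a size factor from DESeq2 1.24.0 per the file header, set separately for 2018 and 2019. It also holds the authors' deposited log2 fold changes and adjusted p-values, which are quoted only as theirs. Within a relative tolerance of 1e-06, 100% of values were whole multiples of 1 step per library, so whole reads were recovered.

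Tests were two-sided, in limma 3.58.1 with its trend option (R 4.3.3); the input was log2 of normalized count with a pseudocount of 1 added, among genes with at least 10 in at least 3 libraries of the fit, and called at an adjusted p under 0.05. Fold changes of low genes are understated on this scale. The 12 libraries of 2018 were fitted together, each 2019 line with its own WT, and differences of effects over all 24. Alternatives were edgeR 4.0.16 and DESeq2 1.42.0 on recovered reads (edgeR called 10959 genes for vcs-6 and 3475 for D153N; limma called 10988 and 3365), TMM scaling, a pseudocount of 0.5, no filter, the batch as a block, batches 1 and 2 alone, and each library left out. The procedure was tested on simulated data.

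Batch numbers from the labels pair the libraries: deviations from group means correlated at 0.14 to 0.68 within a batch and at -0.58 to 0.22 between batches in 2018, and at 0.07 to 0.23 and -0.33 to 0.17 in batches 7 to 9. The 3 columns of vcs-6 carry the same name and no batch. P-values measure the spread between the biological triplicates as labelled. Symbols, transcript lengths, overlaps and sequences came from RefSeq's TAIR10.1 annotation. The regulators and gene lists were chosen with earlier results of these data known. Named from each list are up to 4 called genes with the largest change, and for each regulator the 3 genes with the highest r among those with a mean of at least 20.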

Additional observations from a re-analysis of the deposited data

Results flagged for a closer look

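The differences of effects that passed the test were looked at again. PLT7 in D153N differed from its mean effect in OE1 and OE2 by -1.36 on the log2 scale (adjusted p = 0.043, limma), with all 3 D153N libraries below WT. Between the effect in the libraries labelled vcs-6 and that in D153N, PLT7 differed by 3.56, PLT3 by 1.33, ARF5 by 1.12 and PLT5 by 0.98, each with all 3 vcs-6 libraries above their WT. The call of each of these 4 kept its side of the threshold in all 24 fits that left out 1 library.

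AHP6 differed between these effects by -2.55 ± 0.82 (adjusted p = 0.026, limma), from 10 reads in the libraries labelled vcs-6 and 48 in D153N. The call was lost without WT 5 (-2.23), WT 6 (-2.01), WT 8 (-2.39), the first or second vcs-6 column (-2.48 and -2.06) or D153N of batch 9 (-2.50). DRNL differed by 3.33 ± 1.00 (adjusted p = 0.018, limma), but D153N held 3 reads, so this fitted value depends on the pseudocount. DRNL also passed the filter of 10 normalized counts only through libraries labelled vcs-6, OE2 and OE1, so its call supports nothing. Its call was lost without WT 4 (2.79), WT 8 (2.69) or D153N of batch 9 (2.83).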

How the results depend on the processing

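For the libraries labelled vcs-6, PLT3, PLT5, PLT7 and ANT kept their direction and call under every alternative run, with PLT7 between 2.46 and 2.61 when 1 library was left out. The number of regulators called in D153N was 1; it was 0 without the filter on low values, 2 with DESeq2 and 0 with any 1 library left out, so that the call of ARF5 (-0.46) depends on these settings. For the D153N effect minus that of OE1 and OE2, 1 regulator was called; it was 0 without the filter, 0 with edgeR and 0 to 1 with each library left out. With the batch as a replicate block 0 regulators were called in dne1, OE1, OE2 and both together, and 1 each in D153N and in the difference of D153N and OE effects, so the block changed none of these counts. It moved the number of all genes called to 268 from 30 in OE1, 253 from 37 in OE2, 534 from 79 in both, 2125 from 3365 in D153N and 1027 from 478 in the difference of effects. No paired analysis was possible for the libraries labelled vcs-6 because their columns carry no batch. DESeq2 called 522 genes between the WT groups of 2019, where limma and edgeR called 1. With each library left out, D153N had 754 to 4084 genes called, OE1 10 to 31, OE2 5 to 41 and both 14 to 81. DESeq2 called 208 genes in OE1, 172 in OE2 and 337 in both together, edgeR 17, 28 and 52, and none of these was a regulator. TMM scaling moved the median of all genes by at most 0.04. Leaving out any library labelled vcs-6 took DRNL below the filter, so those fits gave no value for it. Its call held in the 3 that left out a WT library, but DRNL entered those fits only through its vcs-6 values, so this supports nothing. Depth limits DRNL and AHP6, which held 3 to 61 and 10 to 95 reads per group.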
